A study of Homo sapiens with 12 samples.

Results

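Integrins and laminins are the receptors and the matrix proteins with which epithelial cells hold on to their basement membrane. The 37 members described here are genes of the count table, of 24302 features in all, with the name of an integrin α subunit, an integrin β subunit or a laminin chain. These were 18 integrin α genes, 8 integrin β genes and 11 laminin chain genes, and the rule used names only, not measured values. The cells were KYSE150, a human esophageal squamous cell carcinoma line, and all 12 libraries came from cells that carried a GFP construct. In 3 libraries the construct was GFP-TFAP2β-Mut_IDR3, in 3 it was GFP-TFAP2β-ΔIDR3 (written dIDR3 here), in 3 it was GFP-TFAP2β with the unaltered factor (WT), and in 3 it was GFP alone. TFAP2β belongs to the AP-2 transcription factors, and the submitters describe Mut_IDR3 and ΔIDR3 as forms that lack its phase separation. The labels do not say how the constructs were delivered, whether the lines are clones, or whether libraries 1 to 3 of a group are separate cultures, so the p-values below measure the spread between these libraries only.

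An integrin is a heterodimer of 1 α and 1 β subunit, and the pair decides which matrix protein is bound. ITGB1 pairs with many α subunits, ITGB4 pairs with ITGA6 alone, and ITGAV pairs with several β subunits to bind proteins with the RGD motif, such as fibronectin and vitronectin. A laminin is a trimer of an α, a β and a γ chain. In stratified epithelia such as the esophagus, the epidermal laminin (laminin-332), which holds the chains LAMA3 and LAMB3, is the ligand on which ITGA6 with ITGB4 builds hemidesmosomes, the junctions that anchor basal cells.

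The libraries held 30652851 to 43464956 counts, of which the members took 0.226% to 0.288%. TFAP2B, the gene of the constructs, averaged 702 ± 25.9 CPM in Mut_IDR3, 704 ± 62.8 CPM in dIDR3, 280 ± 45.6 CPM in WT and 0.124 ± 0.142 CPM in GFP libraries (CPM, counts relative to the TMM-scaled library size, SD, n = 3 each), so its RNA was higher in both altered forms than in WT, by a log2 fold change of 1.32 in Mut_IDR3 and 1.33 in dIDR3. The level of construct RNA and the form of the factor therefore cannot be told apart in comparisons with WT. Of 13 squamous epithelial markers, all reached a mean of 1 CPM in Mut_IDR3, dIDR3 and GFP libraries and 12 did in WT libraries, where SOX2 averaged 0.105 CPM. Among markers of other cell types, 1 of 9 for fibroblasts, 2 of 8 for leukocytes and 0 of 6 for endothelium reached a mean of 1 CPM in any group, and PTPRC, PECAM1, KDR, FAP and DPT had no counts. The summed level of the leukocyte markers was 56.8 to 64.5 CPM in Mut_IDR3, 56.1 to 57.98 CPM in dIDR3, 87.4 to 110.8 CPM in WT and 76.2 to 79.2 CPM in GFP libraries. Most of it was CD68, a lysosomal protein abundant in macrophages, which averaged 52.9 ± 3.12 CPM in Mut_IDR3, 49.6 ± 0.335 CPM in dIDR3, 92.6 ± 10.5 CPM in WT and 71.7 ± 2.36 CPM in GFP libraries (SD, n = 3 each), and the rest was mainly the member ITGB2. The summed fibroblast markers, nearly all COL1A1, were at 3.75 to 4.47 CPM in Mut_IDR3, 4.27 to 5.35 CPM in dIDR3, 5.34 to 6.55 CPM in WT and 2.61 to 3.68 CPM in GFP libraries. The endothelial markers summed to 0.508 to 1.89 CPM over the 12 libraries. In WT against GFP, CD68 (0.37) and COL1A1 (0.85) were called higher, and CDH5, an endothelial cadherin, was called lower, with 0 CPM in WT and a mean of 0.582 CPM in GFP libraries. Of the squamous markers 7 were called higher and 5 lower. The part of these markers in the results was not tested. The share of mitochondrially encoded mRNA was 8.20% to 8.63% in Mut_IDR3, 7.67% to 7.79% in dIDR3, 5.38% to 6.09% in WT and 9.92% to 10.7% in GFP libraries, and its part in the results was not tested. In such bulk libraries, fewer cells of a kind and less RNA per cell cannot be told apart.

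Of the 37 members, 23 passed the filter on low counts and were tested: 10 integrin α genes, 6 integrin β genes and 7 laminin genes. The other 14 were not tested. ITGA4 and ITGA8, integrin α subunits, and LAMA4, a laminin chain of vessels and muscle, had no counts in any library. The remaining 11 had 10 to 58 counts over all 12 libraries and at most 20 in a library. ITGB3, the β subunit of the platelet integrin and a partner of ITGAV, had 14 counts, all in 2 GFP libraries. The others were ITGA10, ITGA11, ITGAD, ITGAL, ITGAM, ITGAX, ITGB7, LAMA1, LAMB4 and LAMC3, most of them integrins of leukocytes or of connective tissue.

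**Figure D1:**
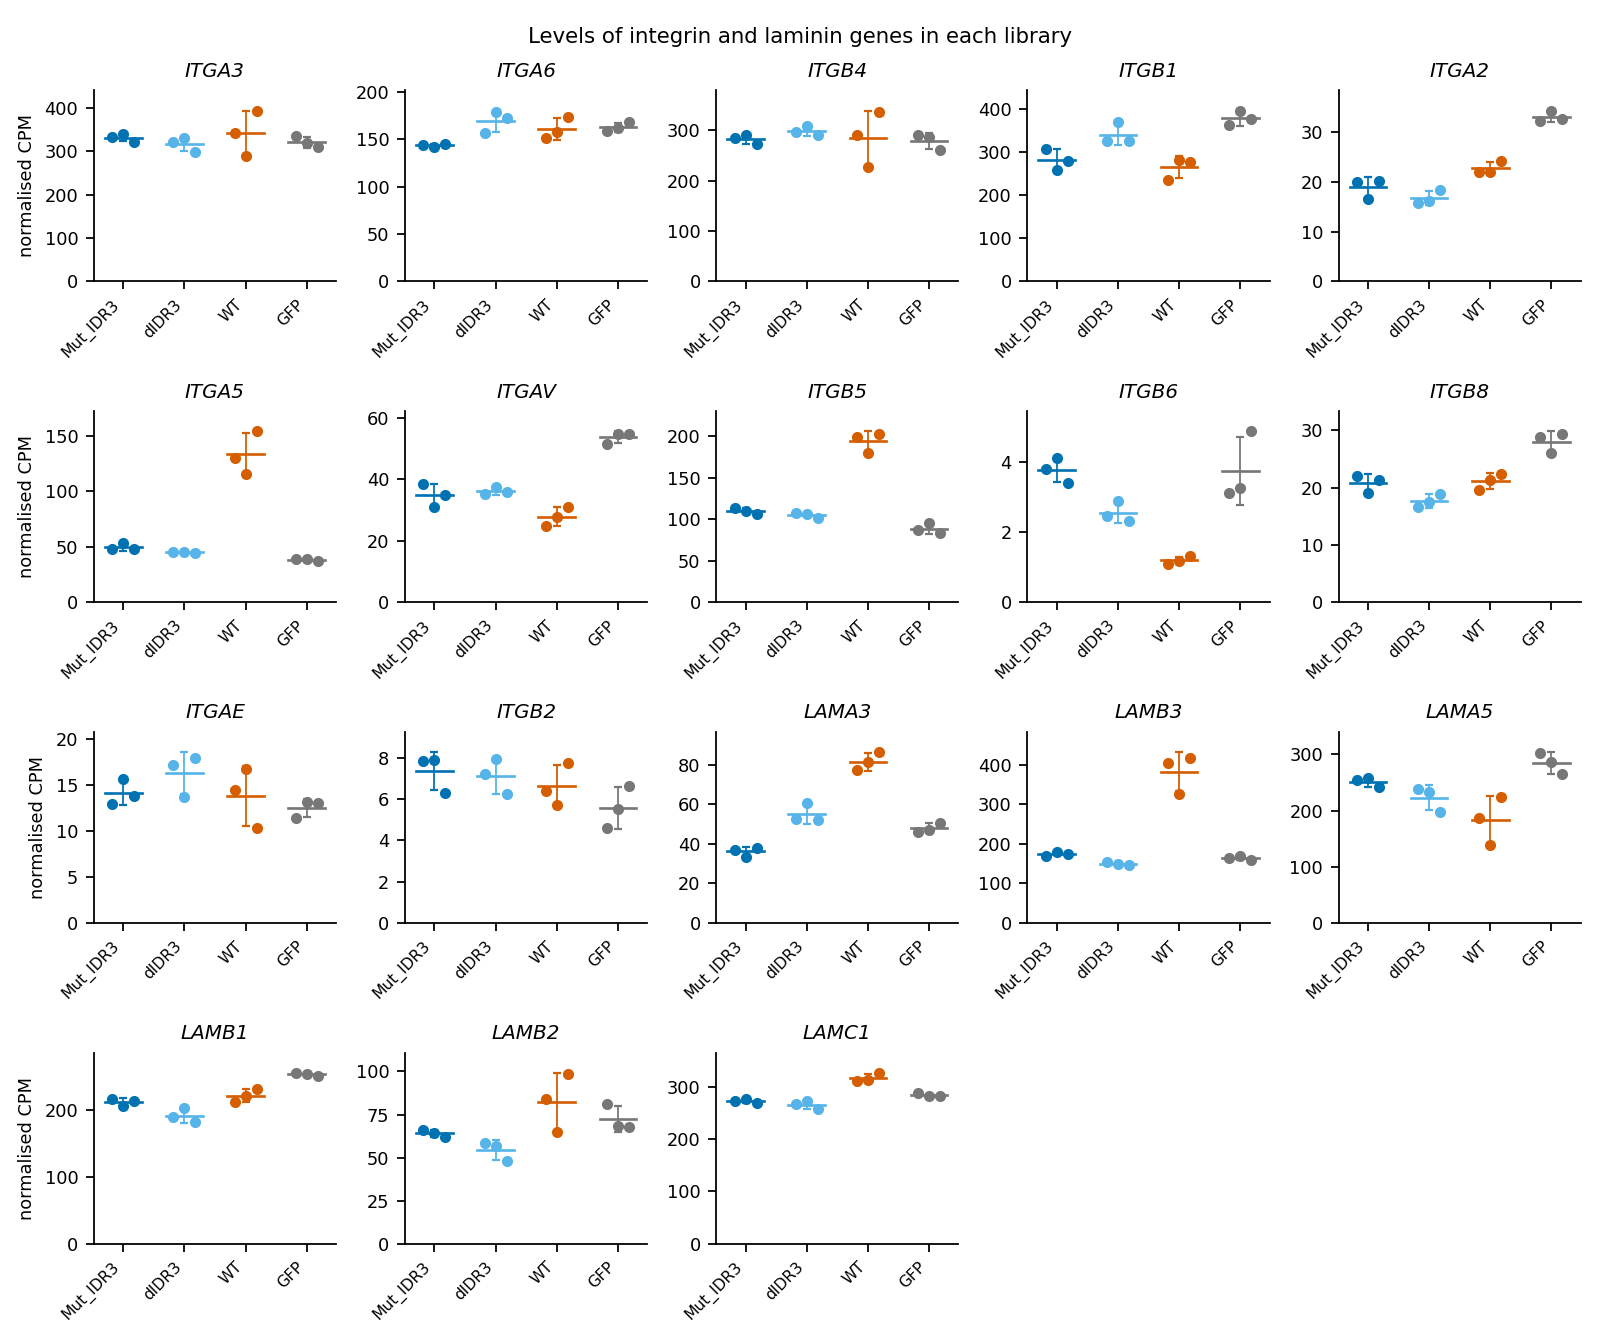
Normalised CPM of the 17 members that averaged 5 CPM or more in a group, and of ITGB6, in each library (points) with the group mean and SD (bars), by group on the x axis. ITGA5, ITGB5, LAMA3 and LAMB3 stand apart in the WT libraries, while the libraries of ITGA3 and ITGB4 overlap between all 4 groups.

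Cells with unaltered TFAP2β had more RNA for the epidermal laminin chains LAMA3 and LAMB3, for the fibronectin receptor subunit ITGA5 and for ITGB5, and less for ITGAV, ITGB1, ITGA2, ITGB6, ITGB8, LAMA5 and LAMB1, than cells with GFP alone. A gene was called where edgeR's quasi-likelihood test gave an adjusted p under 0.05 over all 14792 features tested. In WT against GFP, 5 of the 23 tested members were called higher and 7 lower, and 8 were higher without WT library 2, where ITGA3, ITGB4 and LAMB2 were added. Over all features 54.9% were called, 27.7% as higher and 27.1% as lower, so the share of members called was near the background. The median log2 fold change was -0.19 over the tested members and -0.01 over all features. Of the 7 lower calls, those of ITGA2, ITGB1 and ITGB8 did not hold with the trend of change with GC content removed. Those of LAMA5, LAMB1 and ITGB8 were lost with the trend of change with transcript length removed. ITGAV and ITGB6 stayed lower in both settings. Of the 5 higher calls, that of LAMC1 was lost with the GC trend removed.

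LAMA3 and LAMB3, chains of the epidermal laminin, both rose in WT against GFP. LAMA3 lies at chr18:23689443-23956222 on the plus strand (GRCh38) and LAMB3 at chr1:209614870-209652466 on the minus strand. LAMB3, the β chain, had 404, 327 and 418 CPM in the WT libraries, against 165, 170.0 and 159.6 CPM in the GFP libraries. Every WT library was above every GFP library, and the log2 fold change was 1.22 ± 0.07 (SE, adjusted p = 6.1e-09), a 2.32-fold difference. LAMA3, the α chain, had 77.3, 81.2 and 86.4 CPM in WT libraries and 45.8, 47.1 and 50.7 CPM in GFP libraries. Its rise was smaller, at 0.77 ± 0.08 (SE, adjusted p = 1.2e-06), again with no overlap.

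In both altered forms LAMB3 and LAMA3 were lower than in WT. LAMB3 had 170.4, 178 and 176 CPM in Mut_IDR3 and 153, 150.01 and 147 CPM in dIDR3 libraries, all below the lowest WT library. The log2 fold change against WT was -1.13 ± 0.07 in Mut_IDR3 and -1.35 ± 0.07 in dIDR3 (SE, adjusted p = 1.6e-08 and 2.0e-09). LAMA3 had 37.1, 33.5 and 37.9 CPM in Mut_IDR3 and 52.8, 60.8 and 51.9 CPM in dIDR3 libraries, which gave -1.17 and -0.57 against WT. Here Mut_IDR3 lay below GFP, by a log2 fold change of -0.40 ± 0.08 (SE) at an adjusted p of 0.0032, and dIDR3 lay above it by 0.20 without passing the test (adjusted p = 0.065). LAMB3 was not called in either altered form against GFP, with log2 fold changes of 0.08 and -0.14 and edgeR's adjusted p of 0.45 and 0.18. In dIDR3 it was called lower than GFP with the GC trend removed (-0.22, adjusted p = 0.0015). It was also called lower there without WT library 2 (-0.14, adjusted p = 0.017).

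The promoter windows of LAMA3 and LAMB3 are shown because both hold the AP-1 motif TGANTCA, the site of the JUN and FOS family, which reads alike on both strands. They span 250 bases before to 50 after a RefSeq transcript start (GRCh38.p14), and capitals mark the motif.
LAMA3, chr18:23872770-23873069, plus strand: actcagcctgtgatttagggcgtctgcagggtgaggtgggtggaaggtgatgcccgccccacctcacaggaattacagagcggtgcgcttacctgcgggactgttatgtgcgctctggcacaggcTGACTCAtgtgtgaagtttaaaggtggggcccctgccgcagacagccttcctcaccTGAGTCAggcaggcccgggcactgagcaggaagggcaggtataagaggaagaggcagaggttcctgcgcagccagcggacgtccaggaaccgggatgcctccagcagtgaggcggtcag
LAMB3, chr1:209651325-209651624, minus strand: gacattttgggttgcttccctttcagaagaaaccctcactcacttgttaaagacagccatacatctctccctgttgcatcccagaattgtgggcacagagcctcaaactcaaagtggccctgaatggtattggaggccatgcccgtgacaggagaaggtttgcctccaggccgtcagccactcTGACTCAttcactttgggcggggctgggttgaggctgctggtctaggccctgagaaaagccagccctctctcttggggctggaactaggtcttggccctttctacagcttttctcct
LAMA3 had 2 matches, at -125 and -69 from the start, and LAMB3 had 1, at -67 in 1 of its 3 windows. The LAMA3 window lies inside the gene, which begins at chr18:23689443, and no window covered that start. The LAMB3 window shown lies inside its gene too, which begins at chr1:209652466. The window over that start, chr1:209652376-209652675, held no AP-1 motif. Of 35116 windows of this kind, 7.71% held the motif, and of the 33 windows found for 26 members, 3 did (9.09%), the third being that of ITGA5. This motif was looked for after the values had been seen. The motif bound by AP-2 factors, GCCNNNGGC, which also reads alike on both strands, was in 9 of the 33 member windows (27.3%), against 23.2% of all windows. In the windows of LAMA3 and LAMB3 it occurred once, at +27 in another window of LAMB3, and the window inside LAMA3 held none.

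LAMA3 and LAMB3 did not keep a fixed proportion. Per kilobase of the longest transcript, the ratio of LAMB3 to LAMA3 within each library averaged 12.01 ± 1.00 in Mut_IDR3, 6.77 ± 0.575 in dIDR3, 11.6 ± 1.52 in WT and 8.55 ± 0.651 in GFP libraries (SD, n = 3 each). LAMA3 was less abundant than LAMB3 per kilobase in every group, at 3.39 ± 0.217 CPM per kb in Mut_IDR3, 5.17 ± 0.461 in dIDR3, 7.65 ± 0.428 in WT and 4.49 ± 0.236 in GFP libraries. LAMA3 makes a short and a long transcript, and the longest was used for its length, so its level per kilobase may be too low where the short one prevails.

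**Figure D2:**
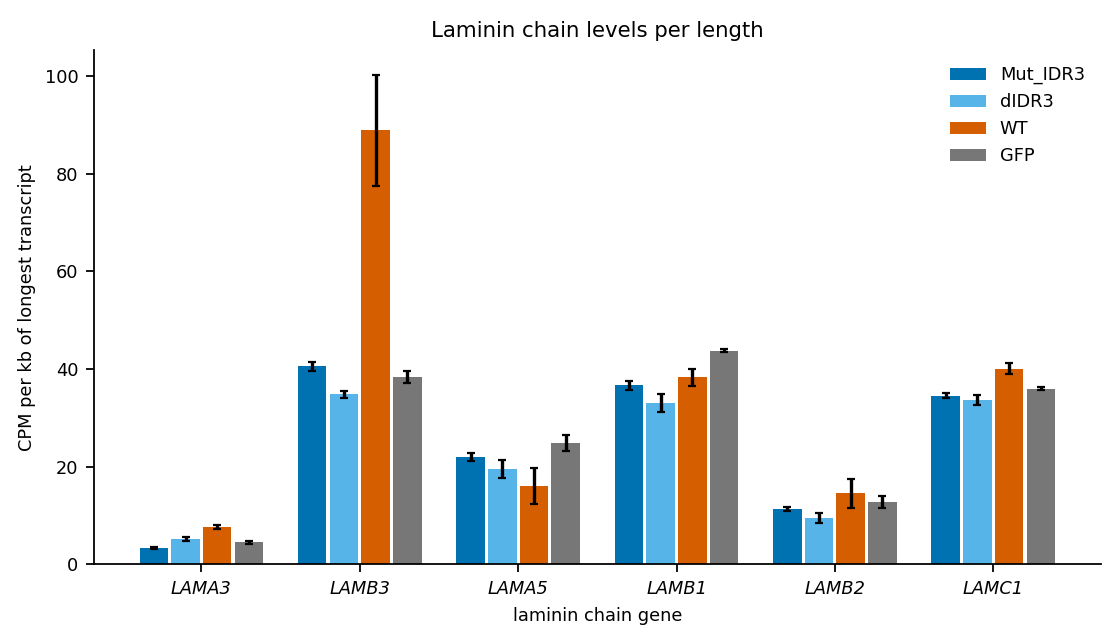
Mean CPM per kilobase of the longest transcript of 6 laminin chain genes, with bars for the SD (n = 3), by gene on the x axis and by group in colour. LAMB3 reaches 88.9 CPM per kb in WT libraries, and the chains LAMA5, LAMB1, LAMB2 and LAMC1 differ less between groups.

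In WT against GFP the changes of the other tested laminin chains differed in direction. LAMA5, LAMB1, LAMB2 and LAMC1 form laminin-511 and laminin-521, which are found in most basement membranes and are bound by ITGA3 and ITGA6 with ITGB1. LAMA5 had 187, 139.6 and 224 CPM in WT libraries, against 303, 287 and 265 CPM in GFP libraries. Its WT libraries were spread widely but all lay below GFP, with a log2 fold change of -0.63 ± 0.12 (SE) at an adjusted p of 4.3e-04. In Mut_IDR3 it had 255, 258 and 241 CPM and in dIDR3 238, 233 and 198 CPM. Mut_IDR3 was higher than WT by 0.45 ± 0.12 (SE, adjusted p = 0.0075), and dIDR3 was lower than GFP by a log2 fold change of -0.35 ± 0.12 (SE) at an adjusted p of 0.042. The dIDR3 call was lost without any one of 7 libraries, with adjusted p up to 0.128. With the trend of change with transcript length removed, the calls of LAMA5 were lost in WT against GFP (-0.25), in Mut_IDR3 against WT (0.23) and in dIDR3 against GFP (-0.22).

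The window of LAMA5 is shown because it holds the AP-2 motif in a gene that was lower with WT. Capitals mark the match, at -213 from the start (RefSeq, GRCh38.p14).
LAMA5, chr20:62367263-62367562, minus strand: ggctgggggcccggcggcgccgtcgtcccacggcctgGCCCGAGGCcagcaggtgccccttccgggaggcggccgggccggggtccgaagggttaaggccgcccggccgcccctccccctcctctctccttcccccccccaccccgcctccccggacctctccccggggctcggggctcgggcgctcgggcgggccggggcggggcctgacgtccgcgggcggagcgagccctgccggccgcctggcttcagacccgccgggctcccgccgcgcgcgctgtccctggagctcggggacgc
The AP-2 motif thus occurred in windows of members called in either direction, in 3 of the 5 genes with a window that were higher with WT and in 3 of the 7 that were lower. It was also in 1 of the 6 genes not called and 1 of the 8 not tested, and in a window of 26.6% of all genes. The 5 higher genes had 9 windows, the 7 lower genes had 9, and all 27305 genes had 35116. The number of windows per gene thus differed, and the shares were not tested.

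LAMB1 had 211, 221 and 231 CPM in WT libraries and 254, 253 and 250.4 CPM in GFP libraries. In Mut_IDR3 it had 216, 205 and 213 CPM and in dIDR3 188, 202 and 181 CPM. It was called lower against GFP with each construct, by log2 fold changes of -0.26 in Mut_IDR3, -0.41 in dIDR3 and -0.19 in WT (SE 0.05 each). The WT call was lost with the length trend removed (-0.07). LAMC1, which lies at chr1:183023460-183145592 and is the γ chain of most laminins, differed little, with 273, 276 and 268 CPM in Mut_IDR3, 266, 274 and 258 CPM in dIDR3, 311, 312 and 326 CPM in WT and 287, 283 and 282 CPM in GFP libraries. All 3 WT libraries were above the rest, and the log2 fold change of WT against GFP was 0.16 ± 0.04 (SE, adjusted p = 0.0059). LAMC1 was lower than WT by a log2 fold change of -0.21 in Mut_IDR3 and of -0.25 in dIDR3. LAMB2 had 66.2, 64.4 and 62.1 CPM in Mut_IDR3, 58.7, 56.7 and 47.8 CPM in dIDR3, 83.9, 64.9 and 98.3 CPM in WT and 80.8, 68.3 and 67.9 CPM in GFP libraries. It was called lower in dIDR3 against GFP (-0.41) and against WT (-0.60) and in Mut_IDR3 against WT (-0.36), where the libraries overlapped. The call of dIDR3 against GFP was lost without dIDR3 library 3 (adjusted p = 0.075) or GFP library 1 (adjusted p = 0.081). The call of Mut_IDR3 against WT was lost without any one of 4 libraries and with the GC trend removed (-0.14). LAMA2, a laminin chain of muscle and nerve, stayed between 1.18 and 3.05 CPM in all 12 libraries and was called in no comparison.

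Among integrins that bind RGD proteins, ITGA5 showed the largest rise of any member in WT against GFP. With ITGB1 it forms the main fibronectin receptor, and its gene lies at chr12:54395261-54419460 on the minus strand (GRCh38). It had 130.5, 116 and 154 CPM in WT libraries, against 38.6, 38.7 and 37.3 CPM in GFP libraries. The lowest WT library was thus far above the highest GFP library, and the log2 fold change was 1.80 ± 0.09 (SE, adjusted p = 7.3e-10), a 3.49-fold difference. The altered forms reached 47.9, 53.8 and 47.6 CPM in Mut_IDR3 and 45.4, 45.4 and 44.2 CPM in dIDR3 libraries. Both lay above GFP and well below WT. Against GFP the log2 fold change was 0.38 ± 0.09 in Mut_IDR3 (SE, adjusted p = 0.0079) and 0.24 ± 0.09 in dIDR3, which missed the threshold (SE, adjusted p = 0.057). The dIDR3 change was called with DESeq2 (adjusted p = 0.045), and by edgeR without WT library 2 (adjusted p = 0.0186) or WT library 3 (adjusted p = 0.0145). Against WT it was -1.42 in Mut_IDR3 and -1.57 in dIDR3.

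ITGB5, a β subunit of ITGAV that binds vitronectin, followed the same order. It had 199, 180.0 and 202 CPM in WT libraries and 87.1, 94.9 and 82.9 CPM in GFP libraries, a log2 fold change of 1.13 ± 0.06 (SE) at an adjusted p of 2.0e-09. In Mut_IDR3 it had 114, 109.8 and 107 CPM and in dIDR3 108, 106 and 102 CPM. All altered-form libraries lay above all GFP libraries and below all WT libraries. Both were called higher than GFP, by 0.32 in Mut_IDR3 and 0.25 in dIDR3, and lower than WT, by log2 fold changes of -0.82 and -0.88. The dIDR3 call against GFP was lost without GFP library 3 (adjusted p = 0.051).

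The windows of ITGA5 and ITGB5 are shown because they belong to the integrin genes with the largest rise in WT. Capitals mark the AP-1 motif in ITGA5, at -6 from the start, and the AP-2 motif in ITGB5, at -121 and -38 (RefSeq, GRCh38.p14).
ITGA5, chr12:54419217-54419516, minus strand: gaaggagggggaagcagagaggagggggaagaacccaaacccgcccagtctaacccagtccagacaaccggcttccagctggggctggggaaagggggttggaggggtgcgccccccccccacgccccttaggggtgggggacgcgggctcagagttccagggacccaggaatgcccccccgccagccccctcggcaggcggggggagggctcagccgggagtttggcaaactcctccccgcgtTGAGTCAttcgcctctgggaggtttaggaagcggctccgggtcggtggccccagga
ITGB5, chr3:124887635-124887934, minus strand: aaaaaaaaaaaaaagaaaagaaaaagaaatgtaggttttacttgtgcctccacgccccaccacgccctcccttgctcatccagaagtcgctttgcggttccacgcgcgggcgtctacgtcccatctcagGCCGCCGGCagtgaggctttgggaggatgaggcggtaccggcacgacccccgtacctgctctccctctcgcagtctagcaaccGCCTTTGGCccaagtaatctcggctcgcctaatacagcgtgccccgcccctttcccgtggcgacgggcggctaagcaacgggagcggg
ITGA5 had no AP-2 match and ITGB5 no AP-1 match in these windows. Of the 3 windows of ITGB5, 2 held the AP-2 motif. The window shown is that with the most matches, and it lies inside the gene, which begins at chr3:124901418. The window over that start, chr3:124901369-124901668, held neither motif.

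ITGAV fell while its partner ITGB5 rose. It had 24.8, 27.6 and 31.1 CPM in WT libraries, against 51.5, 54.8 and 54.9 CPM in GFP libraries, a log2 fold change of -0.95 ± 0.09 (SE) at an adjusted p of 8.6e-07. In Mut_IDR3 it had 38.6, 31.1 and 34.9 CPM and in dIDR3 35.1, 37.7 and 35.8 CPM, between the WT and GFP means. Against GFP the altered forms were lower by log2 fold changes of -0.63 and -0.57, and against WT they were higher by 0.32 and 0.38. The comparison of Mut_IDR3 with WT had overlapping libraries and lost its call without Mut_IDR3 library 1 or WT library 1. With the trend of change with GC content removed, both differences from WT were gone, at -0.01 and -0.04. Per kilobase, ITGB5 over ITGAV was 5.11 ± 0.505 in Mut_IDR3, 4.67 ± 0.223 in dIDR3, 11.3 ± 1.39 in WT and 2.64 ± 0.188 in GFP libraries (SD, n = 3 each). ITGA5 over ITGAV was 2.03 ± 0.360 in Mut_IDR3, 1.75 ± 0.0626 in dIDR3, 6.76 ± 0.783 in WT and 1.00 ± 0.0484 in GFP libraries.

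The other β partners of ITGAV differed from ITGB5. ITGB6, an epithelial subunit whose integrin activates latent TGFβ, had 1.10, 1.18 and 1.30 CPM in WT libraries and 3.13, 3.26 and 4.88 CPM in GFP libraries. This was the largest fall among the members, the log2 fold change being -1.65 ± 0.22 (SE) at an adjusted p of 1.7e-05. ITGB6 had 3.79, 4.12 and 3.41 CPM in Mut_IDR3, within the GFP range, and 2.47, 2.88 and 2.32 CPM in dIDR3, between WT and GFP. Against WT both were higher, by 1.65 ± 0.22 in Mut_IDR3 and 1.09 ± 0.22 in dIDR3 (SE, adjusted p = 3.1e-05 and 7.4e-04). Of the exon bases of ITGB6, 20.6% are shared on the same strand with AC092153.1, which is not a row of the count table used here, so its counts are uncertain. ITGB8, which also activates latent TGFβ, had 22.0, 19.1 and 21.4 CPM in Mut_IDR3, 16.6, 17.5 and 18.9 CPM in dIDR3, 19.6, 21.4 and 22.4 CPM in WT and 28.8, 25.9 and 29.3 CPM in GFP libraries. All 9 libraries with a TFAP2β construct were below all GFP libraries, with log2 fold changes of -0.43 in Mut_IDR3, -0.67 in dIDR3 and -0.41 in WT. For ITGB8 the direction in WT against GFP turned with the GC trend removed, to 0.21 (adjusted p = 0.024), and the call in Mut_IDR3 was lost (-0.17). With the length trend removed the call in WT was lost (-0.14). ITGB8 was also lower in dIDR3 than in WT (-0.26), a call lost without dIDR3 library 1 (adjusted p = 0.056) or WT library 3 (adjusted p = 0.081).

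ITGB1, the common β subunit, was the most abundant integrin gene per kilobase in every group, at 74.3 ± 6.49 CPM per kb in Mut_IDR3, 90.0 ± 6.64 in dIDR3, 69.9 ± 6.86 in WT and 99.8 ± 4.51 in GFP libraries (SD, n = 3 each). In WT its libraries overlapped with those of ITGA3, the next in order. It had 235, 281 and 278 CPM in WT libraries and 362, 396 and 376 CPM in GFP libraries, a log2 fold change of -0.51 ± 0.08 (SE) at an adjusted p of 5.3e-05. It also fell in Mut_IDR3, to 307, 259 and 278 CPM (-0.43 against GFP). In dIDR3 it had 326, 369 and 326 CPM, overlapped with GFP and was not called against it (adjusted p = 0.17). dIDR3 was higher than WT by 0.36 ± 0.08 (SE, adjusted p = 0.0012). With the GC trend removed, neither WT against GFP (-0.05) nor dIDR3 against WT (0.03) was called.

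ITGA2, which with ITGB1 binds collagen, was lower with every construct than with GFP. It had 19.995, 16.6 and 20.1 CPM in Mut_IDR3, 15.7, 16.2 and 18.4 CPM in dIDR3, 22.0, 21.9 and 24.2 CPM in WT and 32.2, 34.3 and 32.7 CPM in GFP libraries. No library with a construct reached the GFP range, and the log2 fold change against GFP was -0.81 ± 0.09 in Mut_IDR3, -0.98 ± 0.09 in dIDR3 and -0.54 ± 0.09 in WT (SE). The altered forms were also lower than WT, by log2 fold changes of -0.26 in Mut_IDR3 and -0.44 in dIDR3. The Mut_IDR3 call was lost without Mut_IDR3 library 2 (adjusted p = 0.145) or WT library 3 (adjusted p = 0.101). Removing the GC trend left -0.09 in WT against GFP, which was not called. ITGA1, the other tested collagen-binding subunit, was near the limit of detection, with 0.756 to 1.64 CPM in Mut_IDR3, 0.599 to 1.67 in dIDR3, 0.178 to 0.531 in WT and 0.162 to 0.838 in GFP libraries. It was called higher than WT in Mut_IDR3 (1.77 ± 0.62, SE, adjusted p = 0.032) and in dIDR3 (1.95 ± 0.62, SE, adjusted p = 0.016), and each call was lost without any one of 3 libraries. ITGA1 shares 475 exon bases on the same strand with PELO, which had 22383 counts against 352 for ITGA1, so its counts are uncertain.

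ITGA3, ITGA6 and ITGB4, subunits of laminin receptors, were not called in WT against GFP, unlike ITGB1, the partner of ITGA3 and, in some receptors, of ITGA6. ITGA3, which pairs with ITGB1, had 334, 339 and 323 CPM in Mut_IDR3, 322, 330.0 and 299.6 CPM in dIDR3, 342, 289 and 394 CPM in WT and 334, 319 and 309.5 CPM in GFP libraries. ITGB4 had 284, 291 and 273 CPM in Mut_IDR3, 296, 309 and 289 CPM in dIDR3, 290.3, 226 and 335 CPM in WT and 289, 286 and 259.7 CPM in GFP libraries. The WT libraries of both genes spanned the range of the other groups, with library 2 lowest. ITGA6 had 144, 142 and 145 CPM in Mut_IDR3, 157, 178 and 172 CPM in dIDR3, 151, 157 and 173 CPM in WT and 158, 162 and 168 CPM in GFP libraries. Of the list ITGA3, ITGA6, ITGA7 and ITGB4, all 4 tested, none was called in WT against GFP, with log2 fold changes of 0.09 for ITGA3, -0.02 for ITGA6 and 0.03 for ITGB4. At an unadjusted p under 0.05 the count among these 4 was also 0, and DESeq2 called none of them. These values depended on WT library 2 and on the GC content of the transcripts. Without WT library 2, ITGA3 (0.20) and ITGB4 (0.17) were called higher. With the GC trend removed, ITGA3 (-0.27) and ITGB4 (-0.34) were called lower and ITGA6 (0.24) higher.

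ITGA6 was the 1 gene of that list called in an altered form. In Mut_IDR3 it was lower than in dIDR3 (-0.24 ± 0.06), WT (-0.16 ± 0.06) and GFP (-0.18 ± 0.06, all SE), with adjusted p of 0.021, 0.041 and 0.046 in edgeR's quasi-likelihood test. Its 3 Mut_IDR3 libraries lay below all others. Each of these calls was lost without any one of 4 to 6 libraries, and those against dIDR3 and GFP also with the GC trend removed (-0.19 and -0.07). Per kilobase, ITGB4 over ITGA6 was 1.87 ± 0.0811 in Mut_IDR3, 1.68 ± 0.101 in dIDR3, 1.67 ± 0.270 in WT and 1.63 ± 0.141 in GFP libraries (SD, n = 3 each). The Mut_IDR3 libraries overlapped with those of dIDR3 and WT but not with those of GFP.

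Integrins of leukocytes were low. ITGAE, which with ITGB7 binds E-cadherin, had 10.3 to 17.98 CPM over the 12 libraries and was called in no comparison, and 6.41% of its exon bases overlap HASPIN on the opposite strand. ITGB2, the β subunit of leukocyte integrins, had 4.61 to 7.92 CPM and was likewise not called. In dIDR3 against GFP ITGAE was at 0.38 ± 0.15 (SE, adjusted p = 0.076), and ITGB2 in Mut_IDR3 against GFP at 0.39 ± 0.17 (SE, adjusted p = 0.11). ITGA2B, ITGA7 and ITGA9 stayed at or below 1.09 CPM in all libraries and were called in no comparison.

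**Figure D3:**
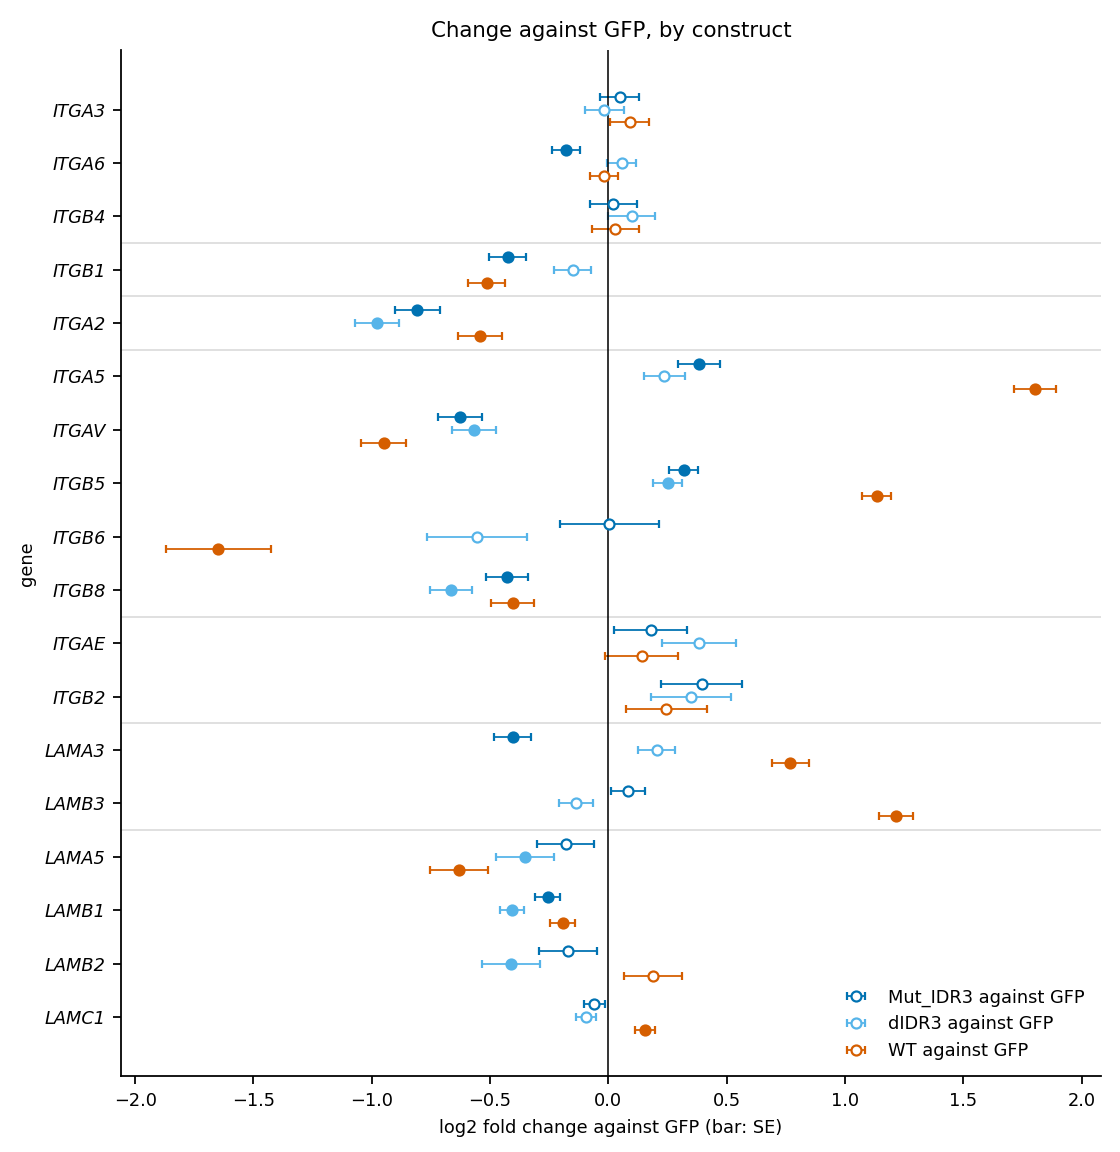
Log2 fold change against GFP with Mut_IDR3, dIDR3 and WT (x axis) for 18 members, grouped by role on the y axis, with bars for the SE and filled points where the gene was called. ITGA5, ITGB5, LAMA3 and LAMB3 reach 0.77 to 1.80 with WT and -0.40 to 0.38 with the altered forms.

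Against GFP, ITGA5 and ITGB5 were the members called higher with an altered form, and both rose less than with WT. Of the members called lower with all TFAP2β constructs, ITGA2, ITGB8 and LAMB1 had a lower log2 fold change with both altered forms than with WT. That of ITGAV was higher. Among these 4 members, ITGA2 alone was called lower than WT in both altered forms. Mut_IDR3 against WT was not called for ITGB8 (-0.02, edgeR's adjusted p = 0.85) or LAMB1 (-0.06, adjusted p = 0.34), and their libraries overlapped. In Mut_IDR3 against GFP, 2 tested members were called higher (ITGA5 and ITGB5) and 7 lower (ITGA2, ITGA6, ITGAV, ITGB1, ITGB8, LAMA3 and LAMB1). Over all features 21.1% were called, 11.2% as higher and 9.85% as lower. In dIDR3 against GFP, 1 member was called higher (ITGB5) and 6 lower (ITGA2, ITGAV, ITGB8, LAMA5, LAMB1 and LAMB2), with 29.0% of all features called, 15.6% as higher and 13.4% as lower. The median log2 fold change of the tested members was -0.06 in Mut_IDR3 and -0.15 in dIDR3, beside -0.01 and -0.02 over all features. These comparisons share the GFP libraries with that of WT, so their values are given side by side and not as separate evidence. The dIDR3 count of higher calls depended on single libraries, being 3 without WT library 2 or WT library 3 and 0 without GFP library 3.

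**Figure D4:**
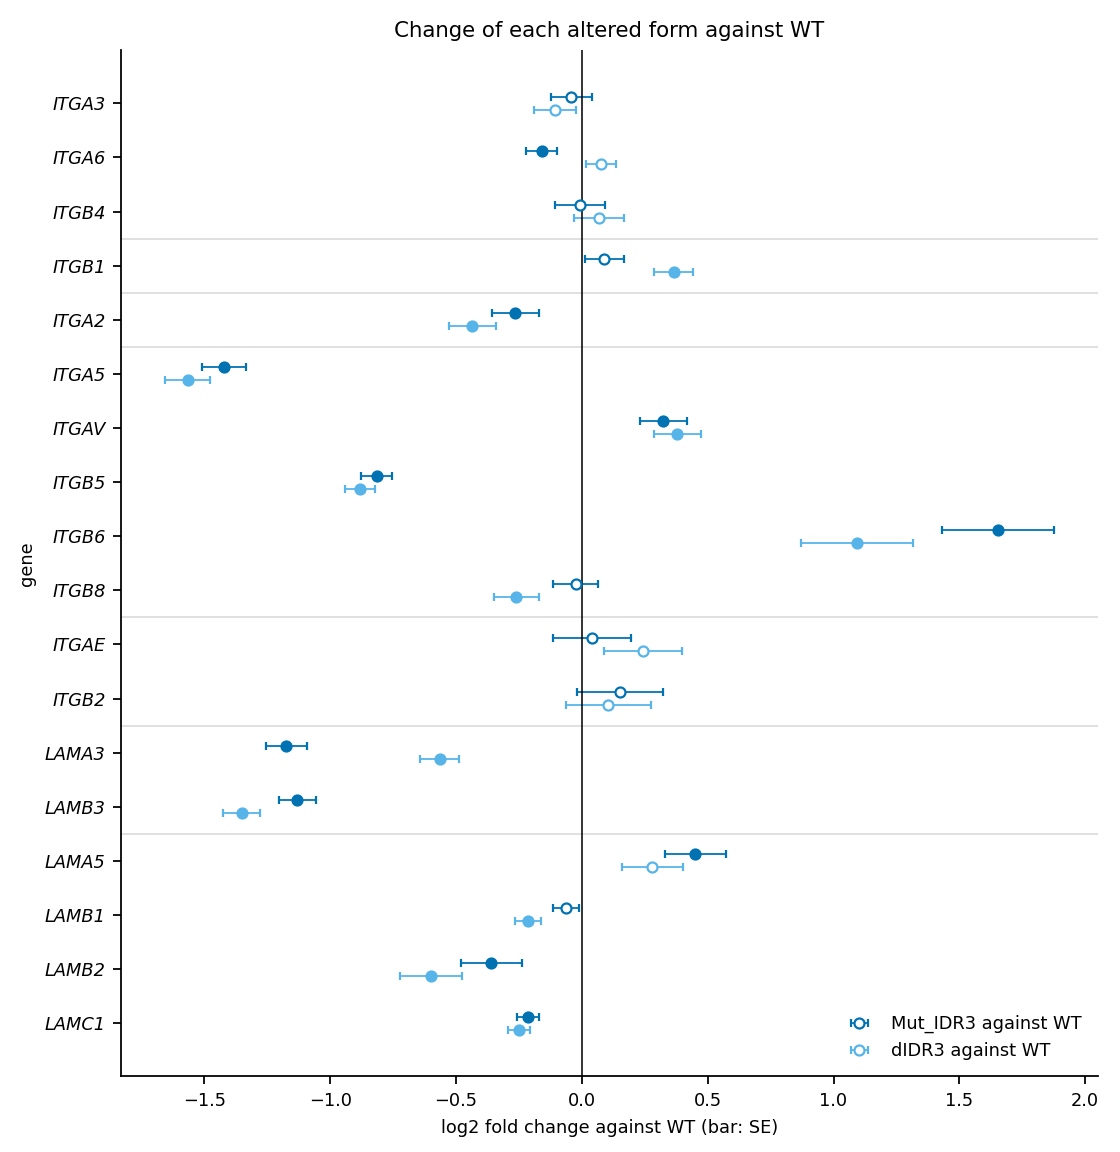
Log2 fold change against WT with Mut_IDR3 and dIDR3 (x axis) for 18 members, grouped by role on the y axis, with bars for the SE and filled points where the gene was called. ITGA5, ITGB5, LAMA3 and LAMB3 lie between -1.57 and -0.57 in both altered forms, and ITGB6 lies above 0 in both.

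Against WT, 4 tested members were called higher in Mut_IDR3 (ITGA1, ITGAV, ITGB6 and LAMA5) and 8 lower (ITGA2, ITGA5, ITGA6, ITGB5, LAMA3, LAMB2, LAMB3 and LAMC1). Over all features 44.1% were called, 23.2% as higher and 20.9% as lower. In dIDR3 against WT, 4 were called higher (ITGA1, ITGAV, ITGB1 and ITGB6) and 9 lower (ITGA2, ITGA5, ITGB5, ITGB8, LAMA3, LAMB1, LAMB2, LAMB3 and LAMC1), with 52.3% of all features called, 27.2% as higher and 25.0% as lower. Laminin genes made up 4 of the 8 lower calls in Mut_IDR3 and 5 of the 9 in dIDR3, out of 7 tested. Their median log2 fold change was -0.21 in Mut_IDR3 and -0.25 in dIDR3, beside 0.03 over all features in both. In Mut_IDR3, 2 members were higher without Mut_IDR3 library 1 or WT library 1, and 5 were lower without Mut_IDR3 library 2 or WT library 3. Both comparisons share the WT libraries.

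In Mut_IDR3 against dIDR3, 3 tested members were called lower and 0 higher, with 10.8% of all features called, 5.54% as higher and 5.24% as lower, so the share of members called was near the background. The 3 were LAMA3 (-0.61, 95% interval -0.79 to -0.43), ITGB1 (-0.28, -0.46 to -0.09) and ITGA6 (-0.24, -0.37 to -0.10), as log2 fold changes with edgeR's adjusted p of 2.8e-04, 0.037 and 0.021. The intervals are unadjusted and use the SE with 8 residual degrees of freedom. At an unadjusted p under 0.05, 4 members were higher (ITGB6, ITGB8, LAMB1 and LAMB3), a threshold at which the share over all features is not given here. At its adjusted p, DESeq2 called 2 of the 23 tested members higher, and 1159 of all 14792 features. For LAMB3 the log2 fold change was 0.22 (interval 0.05 to 0.39), opposite to LAMA3. For ITGA5 (0.14, interval -0.06 to 0.35) and ITGB5 (0.07, interval -0.07 to 0.21) the test did not separate the forms. The ITGB1 call was lost without any one of 8 libraries, and 1 member in all was called without Mut_IDR3 library 2, Mut_IDR3 library 3 or dIDR3 library 3, against 5 without WT library 2 or WT library 3. Without dIDR3 library 2, 1 was lower and 1 higher.

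Transcript composition moved with these changes. Over 12724 features with a known transcript, the log2 fold change of WT against GFP had a Spearman correlation of 0.509 with GC content, and over the 23 tested members 0.386, given as a description across genes, which are not independent replicates. Of the 7 members that fell, ITGAV (38.3% GC), ITGB8 (37.8%), ITGB1 (40.0%), ITGA2 (40.2%) and ITGB6 (40.1%) have transcripts low in GC, while LAMB1 has 49.5% and LAMA5 66.4%. With this trend removed within each library, 8 of the 12 members called in WT against GFP were called in the same direction. ITGA5 (1.51), ITGB5 (0.85), LAMB3 (0.87) and LAMA3 (0.54) stayed higher, and ITGAV (-0.37), ITGB6 (-1.19), LAMA5 (-1.01) and LAMB1 (-0.36) stayed lower. The calls of ITGA2, ITGB1 and LAMC1 were lost, and ITGB8 turned to 0.21. With transcript length, the Spearman correlation of the change was -0.255 over all these features and -0.218 over the 23 tested members. With the length trend removed, 9 of the 12 members were called in the same direction. ITGB8 (-0.14), LAMA5 (-0.25) and LAMB1 (-0.07) were then not called. The part of composition in these changes was not tested.

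**Figure D5:**
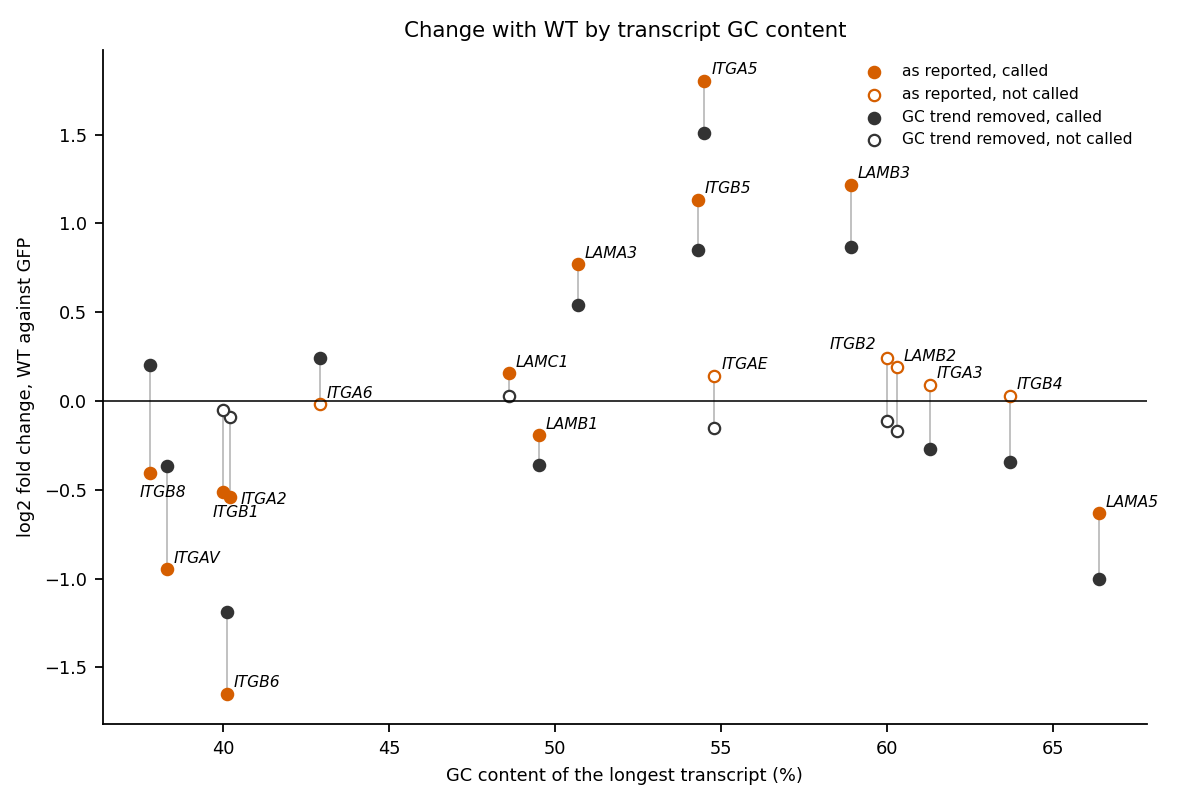
Log2 fold change of WT against GFP (y axis) by GC content of the longest transcript in percent (x axis) for the 17 members that averaged 5 CPM or more in a group and ITGB6, as reported and with the GC trend removed, joined by a line. Filled points were called, and ITGA5, ITGB5, LAMA3 and LAMB3 are above 0 in both.

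The partners of these genes were taken from 4 lists. Among 19 tested hemidesmosome and basement membrane genes, 8 rose and 4 fell in WT against GFP, with a median log2 fold change of 0.17. Those with the lowest adjusted p were KRT14, a basal keratin (1.83), SDC4, a matrix co-receptor (1.08), COL17A1, the hemidesmosomal collagen that binds laminin (0.74), and CD151, a tetraspanin partner of laminin-binding integrins (0.54). KRT14 averaged 56.2 ± 2.66 CPM in Mut_IDR3, 46.6 ± 1.65 CPM in dIDR3, 806 ± 68.1 CPM in WT and 227 ± 2.20 CPM in GFP libraries, so both altered forms were below GFP. Against WT, 2 genes of this list rose and 6 fell in Mut_IDR3, and 5 rose and 8 fell in dIDR3. COL17A1 averaged 219 ± 4.32 CPM in Mut_IDR3, 255 ± 10.3 CPM in dIDR3, 380 ± 36.9 CPM in WT and 227 ± 3.12 CPM in GFP libraries.

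Of 17 tested ligands of integrins other than laminins, 10 rose and 1 fell in WT against GFP, with a median of 0.85. They included CYR61, a secreted matrix protein (2.78), FN1, fibronectin (1.86), THBS1, thrombospondin (1.16), and CDH1, E-cadherin and the ligand of ITGAE (1.03). FN1 averaged 34.2 ± 0.797 CPM in Mut_IDR3, 33.3 ± 2.24 CPM in dIDR3, 101 ± 11.3 CPM in WT and 27.8 ± 0.987 CPM in GFP libraries. Its group means thus had the same order as those of its receptor subunit ITGA5. Against WT, 3 ligands rose and 9 fell in Mut_IDR3, and 2 rose and 9 fell in dIDR3. Against GFP, 7 rose and 1 fell in Mut_IDR3 and 9 rose and 3 fell in dIDR3.

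Among 39 tested integrin activators and focal adhesion proteins, 18 rose and 8 fell in WT against GFP, with a median of 0.24. VASP (0.92) and ZYX (0.85), actin regulators of focal adhesions, and ILK (0.77), which joins integrin tails to actin, rose, and KRIT1, a regulator of an integrin inhibitor, fell by 1.06 on the log2 scale. Against WT, 9 of this list rose and 15 fell in Mut_IDR3, and 10 rose and 13 fell in dIDR3. The last list held enzymes that process laminin or integrin-bound matrix, and the receptor PLAUR. Of its 8 tested genes, 5 rose and 1 fell in WT against GFP, with a median of 0.80. PLAUR, the urokinase receptor (3.06), PLAU, urokinase (1.502), and MMP2, a matrix protease (0.95), rose, and ADAM10, a sheddase, fell by 0.93. PLAUR averaged 35.2 ± 1.79 CPM in Mut_IDR3, 35.1 ± 1.58 CPM in dIDR3, 276 ± 12.1 CPM in WT and 33.2 ± 3.00 CPM in GFP libraries. Against WT, 1 gene of this last list rose and 5 fell in each altered form. The lists are read beside the share of all features called, and no list was tested as a set. This was 27.7% higher and 27.1% lower in WT against GFP, 11.2% higher and 9.85% lower in Mut_IDR3 against GFP, and 15.6% higher and 13.4% lower in dIDR3 against GFP. Against WT it was 23.2% higher and 20.9% lower in Mut_IDR3, and 27.2% higher and 25.0% lower in dIDR3.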

How the data were processed

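RNA of 12 KYSE150 libraries was extracted with a Qiagen RNeasy kit and made into libraries with a SMARTer mRNA kit, per the labels' protocols. The submitters' processing notes name Trim Galore, HISAT2, StringTie and the genome GRCh38. The versions, the counting program, the annotation release and the strand setting are not given in the sources used here, so genes that share exons or have near copies are uncertain. Raw read counts per gene were deposited by the authors and used unchanged, at 30652851 to 43464956 counts a library, and intervals cover the spread between libraries.

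Features kept by filterByExpr (minimum count 10) were scaled by TMM and tested with edgeR 4.0.16 (quasi-likelihood F test, all 4 groups, 8 residual degrees of freedom, Benjamini-Hochberg adjustment over 14792 features within each of 6 comparisons) in R 4.3.3 with limma 3.58.1. With 3 libraries a group, the smallest p of an exact permutation test is 0.1. CPM are counts over the scaled library size. The edgeR, block, DESeq2 and GC steps were tested on simulated data. Alternatives were DESeq2 1.42.0, other scalings, no filter, only 2 groups, removal of GC or length trends (20 bins of features with at least 1 CPM), a replicate block and leaving out each library. GC content, length and exon overlaps came from the GENCODE annotation of GRCh38, and promoter windows from RefSeq (GRCh38.p14), where 26 of 37 members matched. No protein sequences were used here.

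Members that averaged 5 CPM or more in a group are given by library, the others by range and where called. Of each partner list the 4 called genes with the lowest adjusted p in WT against GFP are named. Of 38 genes that match the name rule, 1 is not reported here and is in none of the members' counts. The members and lists were chosen with earlier results of these data known.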

Additional observations from a re-analysis of the deposited data

How the results depend on the processing

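Over the 12 fits that each left out 1 library, the number of members called was 12 to 15 in WT against GFP, 8 to 9 in Mut_IDR3 against GFP, 5 to 10 in dIDR3 against GFP, 9 to 12 in Mut_IDR3 against WT, 12 to 14 in dIDR3 against WT and 1 to 5 in Mut_IDR3 against dIDR3. Higher and lower calls ranged over 5 to 8 and 7 to 7, 2 to 2 and 6 to 7, 0 to 3 and 4 to 7, 2 to 5 and 5 to 8, 3 to 5 and 8 to 10, and 0 to 2 and 1 to 3 in the same order of comparisons. All calls over all features ranged over 7320 to 8329, 1566 to 3796, 3099 to 4893, 5478 to 6772, 6792 to 7785 and 819 to 2265. These fits ended 49 calls of named members and added 18. They turned no direction where the change was called in the main fit or in the fit without a library. Directions of changes not called did turn. In WT against GFP, the log2 fold change ranged over -0.02 to 0.20 for ITGA3, -0.08 to 0.02 for ITGA6 and -0.11 to 0.17 for ITGB4.

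Other settings moved some counts by over 1.5 times. In dIDR3 against GFP the higher calls were 2 with DESeq2, 3 with only the 2 groups compared and 2 with the length trend removed, and 11 members were called with only those groups. Over all features the higher calls there were 2380, 2557 and 2307 in these settings, beside 2309 as reported. With only those groups 4956 of 14113 features were called, beside 4294 of 14792 as reported. In Mut_IDR3 against dIDR3 the higher calls were 2 with upper-quartile factors, 1 without a filter, 2 with DESeq2, 3 with only the 2 groups compared, 2 with the GC trend removed, 3 with the length trend removed and 1 with a replicate block and the GC trend removed, which also left 1 lower call. Over all features these higher calls were 1074, 833, 1159, 1154, 957, 774 and 804 in the same order of settings, beside 819 as reported. The last setting had 940 lower calls, beside 775. There 5 members were called with DESeq2 and with the length trend removed, and 6 with only the 2 groups compared. Over all features 2158, 1575 and, of 14091, 2290 were called in these settings, beside 1594 of 14792 as reported. Mut_IDR3 against GFP had 1 higher call with the block and the GC trend removed, and with the length trend removed Mut_IDR3 against WT had 2 higher calls and WT against GFP 4 lower. The same counts over all features were 1016, 3427 and 4097, beside 1657, 3432 and 4016 as reported. Over all features, Mut_IDR3 against GFP had 3114 calls, 1839 with the block and the GC trend removed and 1566 to 3796 without 1 library, and Mut_IDR3 against dIDR3 had 1594, and 819 to 2265 without 1 library. Of the calls in Mut_IDR3 against dIDR3, 51.4% were higher, and 65.3% with upper-quartile factors. No other scaling moved the median over all features by more than 0.03.

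Directions of changes called as reported or with the GC trend removed turned in some genes. They turned to the same 2 decimals when the replicate block was added, unless given. In WT against GFP these were ITGA3 (-0.27), ITGA6 (0.24), ITGB4 (-0.34) and ITGB8 (0.21). In Mut_IDR3 against WT they were ITGA3 (0.19), ITGAV (-0.00687), ITGB1 (-0.18) and ITGB4 (0.23), and in dIDR3 against WT ITGA3 (0.21) and ITGAV (-0.0374, and -0.0366 with the block). Changes called in neither fit turned as well, such as LAMB2 (0.19 to -0.17), ITGAE (0.14 to -0.15) and ITGB2 (0.24 to -0.11) in WT against GFP. The cause was not tested. Depth limits ITGA1, which had 6 to 69 counts a library.

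The replicate numbers of the labels did not pair the libraries. Libraries with the same number in different groups had correlations of -0.07 to 0.08 in 18 pairs, and 3 of 12 libraries correlated best with their own number. With a replicate block 12, 9, 6, 11, 13 and 2 members were called in the order above, and the calls of ITGA1 in Mut_IDR3 against WT (adjusted p = 0.051), ITGB1 in Mut_IDR3 against dIDR3 (0.060) and LAMA5 in dIDR3 against GFP (0.057) fell away. Over all features the block gave 7932, 2795, 3984, 6280, 7471 and 1206 calls, beside 8118, 3114, 4294, 6519, 7730 and 1594 without it.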
